A study of Mus musculus with 2 samples.

Results

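The Mir322-Mir503 cluster is a run of microRNA (miRNA) genes on the X chromosome, known in mouse for miRNAs that restrain the cell cycle. Its members were taken by gene symbol from the GENCODE M21 annotation as Mir322, Mir503, Mir351, Mir542 and every symbol beginning with Mir450. The rule found 7 members (Mir322, Mir503, Mir351, Mir542, Mir450-2, Mir450-1 and Mir450b) among 2202 miRNA genes. It used no measured value, but it was chosen with earlier results of these data known. The counts came from whole adrenal gland tissue of B6CASTF1/J mice, F1 animals of a C57BL/6 by CAST cross, all male and sampled at 10 days of age with no treatment named in the labels. There was 1 group of 2 libraries, numbered in the labels as biological replicates 1 and 2 and tied to one donor record. The labels do not say if glands of several animals were combined. With no second condition, the comparisons were made among the members and between the 2 libraries.

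A miRNA is cut from a hairpin precursor and guides repression of messenger RNAs, mainly through its seed, bases 2 to 8 counted from the 5′ end. miR-322, the mouse counterpart of human miR-424, and miR-503 belong to the extended miR-15/16 family, whose known targets include cyclins and the phosphatase Cdc25a, and both are known to promote cell-cycle arrest in differentiating muscle cells. Hairpins of one cluster can be cut from a shared primary transcript and still yield different amounts of mature miRNA. Males carry a single X chromosome.

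The sequences below show which members have the targeting seed in common with each other and with miRNAs from elsewhere in the genome. All are mature sequences from RefSeq (GRCm38.p6), written 5′ to 3′ with the seed in capitals. The table held mature sequences for all 7 members, 14 entries with 13 distinct sequences. The first set holds the 5p arms of Mir322 and Mir503 beside the miR-15/16 family. miR-322-5p had the same seed as the 5 family sequences shown under miR-503-5p, while miR-503-5p differed from miR-322-5p within the seed by A8G, that is, A in miR-322-5p and G in miR-503-5p.
miR-322-5p: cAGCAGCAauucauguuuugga
miR-503-5p: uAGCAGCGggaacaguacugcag
miR-15a-5p: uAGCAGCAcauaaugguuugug
miR-15b-5p: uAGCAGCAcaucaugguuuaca
miR-16-5p: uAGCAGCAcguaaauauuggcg
miR-195a-5p: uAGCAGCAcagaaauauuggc
miR-497a-5p: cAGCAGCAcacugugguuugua

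The second set shows that the 5p arm of Mir351 had the seed of the miR-125 family, not that of its neighbours in the cluster.
miR-351-5p: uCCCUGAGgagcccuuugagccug
miR-125a-5p: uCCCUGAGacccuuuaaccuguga
miR-125b-5p: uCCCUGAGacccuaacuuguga

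The third set shows the arms of Mir542 and of the Mir450 hairpins, since the close relation of the Mir450 hairpins bears on their counts. The 3p arms of Mir322, Mir503 and Mir351 are not shown. miR-450a-5p is one sequence made from both Mir450-1 and Mir450-2. Within the seed, miR-450b-5p differed from it by G7A and A8G. miR-450a-1-3p and miR-450b-3p had a common seed and differed by 2 substitutions over 22 bases, A19G and A20C.
miR-542-3p: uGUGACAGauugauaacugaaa
miR-542-5p: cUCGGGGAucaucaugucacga
miR-450a-5p: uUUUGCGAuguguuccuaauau
miR-450b-5p: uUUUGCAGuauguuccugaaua
miR-450a-1-3p: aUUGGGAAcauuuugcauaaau
miR-450a-2-3p: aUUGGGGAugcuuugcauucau
miR-450b-3p: aUUGGGAAcauuuugcaugcau

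The cluster occupied 6353 bp of the minus strand of the X chromosome, from 53047997 to 53054349 (mm10). In the direction of transcription Mir322 came first, at chrX:53054255-53054349, then Mir503 at chrX:53053984-53054054 after a gap of 200 bp and Mir351 at chrX:53053255-53053353 after 630 bp. Mir542, at chrX:53049403-53049487, lay 3767 bp further on. The Mir450 hairpins closed the run, Mir450-2 at chrX:53048299-53048367, Mir450-1 at chrX:53048154-53048244 and Mir450b at chrX:53047997-53048078, with gaps of 1035, 54 and 75 bp. None of the 7 hairpins overlapped another annotated gene on either strand, so each had no annotated host exon or intron. The long noncoding gene Gm28730 lay on the same strand between Mir351 and Mir542, and the noncoding gene C430049B03Rik ended 697 bp upstream of the first base of Mir322 on that strand.

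**Figure D1:**
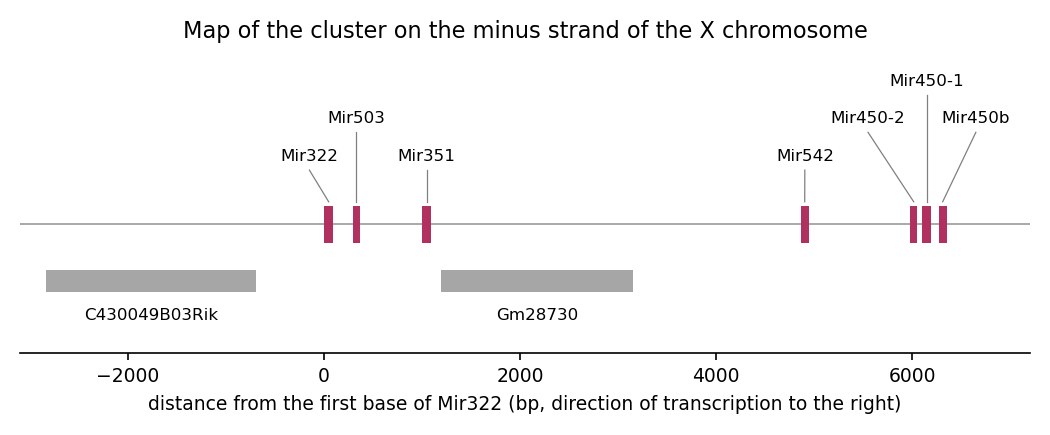
Map to scale of the 7 hairpins (red boxes) and the noncoding genes Gm28730 and C430049B03Rik (grey boxes, whole gene spans), all on the minus strand. The x axis is the distance in bp from the first base of Mir322, and the map shows Mir322, Mir503 and Mir351 close together and apart from Mir542 and the 3 Mir450 hairpins.

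Replicate 1 held 2843734 reads on the own strand of miRNA genes and replicate 2 held 3080062. CPM divides a count by the total of these reads in its library and multiplies by 1e6, and intervals are 95% Wilson intervals for counting error only. For a gene with 0 counts the limit of 3 counts corresponds to 1.05 and 0.974 CPM in replicates 1 and 2. Mir375, known from neuroendocrine cells such as those of the adrenal medulla, had 34144 and 34383 CPM in replicates 1 and 2, while the other 3 neuroendocrine genes were lower in replicate 2, Mir7b at 5272 and 3120 CPM, Mir7-1 at 389.6 and 244.5 CPM and Mir7-2 at 108.7 and 47.4 CPM. Markers of other tissues differed between the libraries. The hepatocyte marker Mir122 had 29424 and 97850 CPM, and the 9 striated muscle genes summed to 929.1 and 3337 CPM, nearly all Mir206, with 7 of 9 higher in replicate 2 and Mir133a-2 at 0 in both. Among these 7, Mir133a-1 and Mir208a had 0 and 1 counts in replicates 1 and 2, and Mir1a-2 had 3 and 4. The direction of such low counts is not resolved. The endothelial marker Mir126a had 84263 and 45250 CPM, and the 5 smooth muscle and fibroblast genes summed to 40292 and 34060 CPM with Mir199a-1 at 0. That sum follows Mir143 (37388 and 30258 CPM), while Mir214 and Mir145a were higher in replicate 2. The 3 erythroid genes summed to 719.8 and 321.7 CPM, with Mir486 alone higher in replicate 2 (17.2 and 42.2 CPM). The 3 leukocyte genes summed to 826.0 and 1294 CPM, with Mir150 alone higher in replicate 2 (291.9 and 786.3 CPM). The 10 kidney and epithelial genes summed to 1573 and 1632 CPM, with 8 of 10 higher in replicate 2, among them Mir200b (39.4 and 160.7 CPM), and the most abundant, Mir203, lower (1139 and 823.7 CPM). The part of these cells in the results below was not tested. In bulk tissue fewer cells of a type and less RNA per cell cannot be told apart. Reads that map to several places were not assigned to a gene, and sequence shared between genes was not checked for the markers. Low or 0 counts of numbered gene copies, such as Mir133a-2 and Mir199a-1, therefore need not mean that the miRNA was absent. The sums of the marker lists can be low for the same reason.

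Together the 7 members held 4.18% of the counts in replicate 1 (4.16 to 4.21) and 2.62% in replicate 2 (2.60 to 2.64), 3.40% ± 1.10 (SD, n = 2). Mir322 made up most of this in both libraries. It was counted 100834 times in replicate 1 (35458 CPM, 35244 to 35674) and 58074 times in replicate 2 (18855 CPM, 18703 to 19007), and averaged 27157 ± 11740 CPM (SD, n = 2). These levels gave it rank 7 of 2202 genes in replicate 1, rank 15 in replicate 2 and rank 9 by mean. In the order of mean levels Mir322 stood between Mir143 at 33823 ± 5041 CPM and Mir139 at 26736 ± 8395 CPM. The next above were Mir375 and Mirlet7i, and the next below Mir10a at 24671 ± 7723 CPM and Mir22 at 22729 ± 5931 CPM. The spread of Mir322 between the libraries was larger than its distance to Mir375, Mir143, Mir139, Mir10a and Mir22, so its place among them is not resolved.

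Mir351, the member with the miR-125 seed, was the next most abundant, with 4473 CPM in replicate 1 (12720 counts) and 5465 CPM in replicate 2 (16833 counts), a mean of 4969 ± 702 CPM. Mir542, whose 3p product has been described as a repressor of the survival gene Birc5, had 1237 and 1098 CPM (3519 and 3383 counts) and a mean of 1168 ± 98.4 CPM. Mir503 had 440.6 CPM in replicate 1 (1253 counts) and 658.4 CPM in replicate 2 (2028 counts), 550 ± 154 CPM. Mir503 lies 200 bp from Mir322, and its level was far lower in both libraries. The ranges of Mir322, Mir351, Mir542 and Mir503 over the 2 libraries did not overlap one another.

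The Mir450 hairpins were the least abundant members. Mir450b had 157.2 and 112.3 CPM (447 and 346 counts), a mean of 135 ± 31.7 CPM. Mir450-2 had 31.6 CPM in replicate 1 (90 counts) and 11.4 CPM in replicate 2 (35 counts), and Mir450-1 had 19.0 CPM (54 counts) and 16.2 CPM (50 counts). Their means, 21.5 ± 14.3 CPM and 17.6 ± 1.95 CPM, were not separated, since the levels of Mir450-1 lay within the range of Mir450-2. The ratio of these hairpins differed between the libraries. Mir450-2 was 1.67 times Mir450-1 in replicate 1 (exact 95% Clopper-Pearson counting interval 1.18 to 2.38) and 0.700 times in replicate 2 (0.441 to 1.10). The interval of replicate 2 includes 1, so the order of these hairpins is not resolved there. These levels are uncertain, because reads that map to several places were not assigned to a gene. All 5 runs of 18 bases in miR-450a-5p stood in both Mir450-1 and Mir450-2, whereas those of Mir322, Mir503, Mir351 and Mir542 stood in no other gene of the table. miR-450a-1-3p and miR-450b-3p had 1 such run in common.

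**Figure D2:**
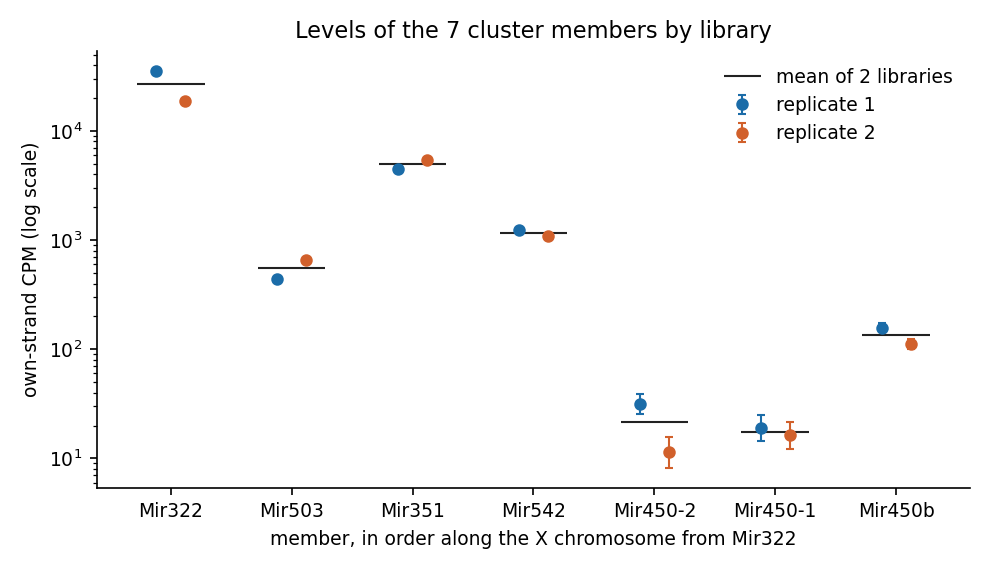
Own-strand CPM on a log axis for each member in genomic order, with replicate 1 (blue), replicate 2 (orange), their mean (line) and 95% Wilson counting intervals (bars, often smaller than the points). Mir322 is the highest member in both libraries, at 35458 and 18855 CPM, and Mir450-1 and Mir450-2 are the lowest.

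Hairpin genes ranged from 69 bp (Mir450-2) to 99 bp (Mir351), although a read from a mature miRNA does not scale with the hairpin's length. Per base of hairpin the order of the members in each library was the same as by CPM, with 373 CPM per base for Mir322, 45.2 for Mir351, 14.6 for Mir542, 6.21 for Mir503 and 1.92 for Mir450b in replicate 1. The count column without strand gave the same number of reads as the own-strand column for all 7 members, and the opposite-strand column listed 0 for all 7 in both libraries.

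Between the libraries the members did not move together. Mir322 was lower in replicate 2 by 1.88-fold, a log2 ratio of replicate 2 to replicate 1 of -0.91 (exact counting interval -0.93 to -0.90). Mir503 was higher in replicate 2, with a log2 ratio of 0.58 (0.48 to 0.68), and so was Mir351, with 0.29 (0.26 to 0.32). Mir542 had a log2 ratio of -0.17 (-0.24 to -0.10), Mir450b of -0.48 (-0.69 to -0.28) and Mir450-2 of -1.47 (-2.08 to -0.90). For Mir450-1 the log2 ratio was -0.23, with an interval that spans 0 (-0.81 to 0.36).

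A two-sided exact binomial test, adjusted by the Benjamini-Hochberg method over the 444 genes that reached 10 counts, asks only if these 2 libraries differ by more than counting error. All 7 members had enough counts, and 6 passed at an adjusted p under 0.05, against 59.0% of all tested genes. With a minimum of 100 counts, which all 7 members reached, 229 of 285 genes passed, with the same 6 members among them. Of the 7 tested members, 4 passed as lower in replicate 2 (30.4% of all tested genes did) and 2 as higher (28.6%). Among the 262 genes of the whole table that passed, 51.5% were lower. The adjusted p in this exact test was 5.23e-29 for Mir503, 7.74e-65 for Mir351, 1.95e-06 for Mir542, 6.66e-06 for Mir450b and 2.05e-07 for Mir450-2, and that of Mir322 was 0 at the precision of the software. Mir450-1 did not pass, at an adjusted p of 0.529. When Mir122 was dropped from the table, Mir542 had a log2 ratio of -0.07 and an adjusted p of 0.0916 in the exact binomial test, so its call was lost, while Mir322 (-0.81), Mir503 (0.68) and Mir351 (0.39) stayed past the threshold. Only Mir450-2 differed by more than 2-fold, 1 of 7 members against 22.3% of all tested genes. The median log2 ratio was -0.23 over the members and 0.07 over all tested genes, and the median absolute log2 ratio was 0.48 and 0.56. Among 138 genes that averaged 1000 counts or more, 27 had a larger absolute log2 ratio than Mir322. A comparison of single libraries has no replicate check, and the 2 libraries are replicates of one group, so these differences are the spread within the group.

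**Figure D3:**
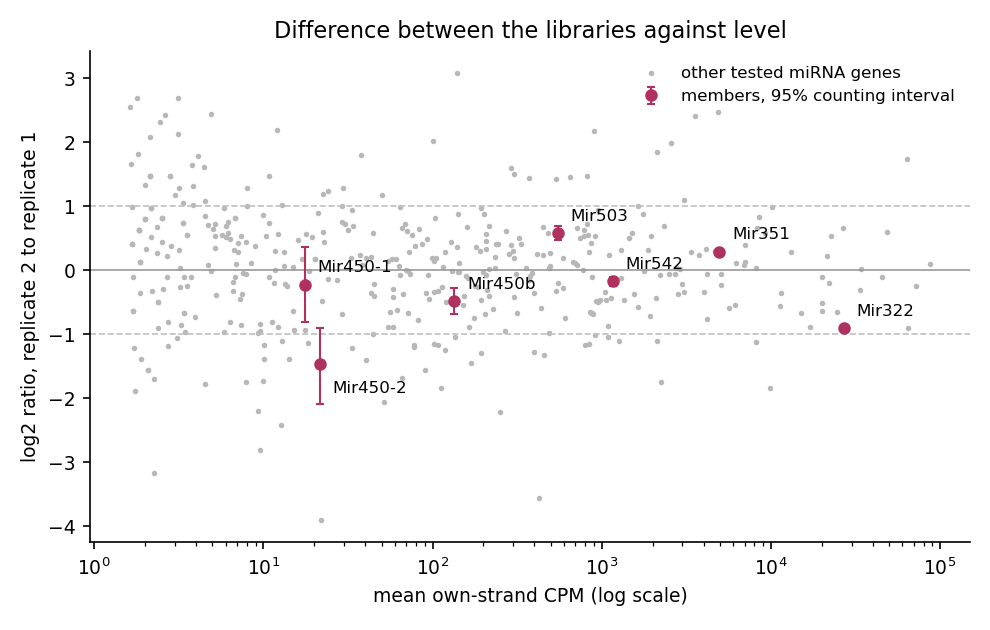
Log2 ratio of replicate 2 to replicate 1 against mean own-strand CPM (log axis) for all 444 tested genes, the members in red with 95% counting intervals and dashed lines at 2-fold. Mir322 lies at -0.91 while Mir503 and Mir351 lie above 0, and Mir450-2 is the only member past the 2-fold line.

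The ratio of members within a library does not depend on the library total or on Mir122. Mir322 had 80.5 reads for each read of Mir503 in replicate 1 (exact counting interval 76.1 to 85.2) and 28.6 in replicate 2 (27.4 to 29.9). Against Mir351 it had 7.93 (7.78 to 8.08) and 3.45 (3.39 to 3.51), and against Mir542 28.7 (27.7 to 29.6) and 17.2 (16.6 to 17.8). None of these 3 pairs of intervals overlapped. Mir322 made up 84.8% of the cluster's counts in replicate 1 and 71.9% in replicate 2, while Mir351 had 10.7% and 20.8%, Mir542 2.96% and 4.19%, and Mir503 1.05% and 2.51%. Without Mir322 the other 6 members summed to 6359 CPM (replicate 1) and 7362 CPM (replicate 2). The cluster's share was lower in replicate 2 and the sum without Mir322 was higher there. Ratios of Mir322 to the low-count Mir450-2 were 1120 (911 to 1393) and 1659 (1193 to 2382), in the other direction.

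The sign of the log2 ratio split by the GC content of the mature arms, although the ratios did not follow its order. Averaged over both annotated arms, since the counts do not separate arms, it was 29.5% for Mir450-1, 34.1% for Mir450b, 36.4% for Mir450-2, 43.2% for Mir542 and 44.3% for Mir322, all with log2 ratios under 0. It was 53.3% for Mir503 and 64.6% for Mir351, both with log2 ratios above 0. Over 397 of the 444 tested genes, those with a mature sequence in the table, GC content and log2 ratio had Pearson's r of 0.26 and Spearman's rho of 0.34. This is a description across genes of the same 2 libraries. After a straight-line fit on GC content over these genes, an alternative chosen after the data were examined, the residual log2 ratio was -0.75 for Mir322, 0.54 for Mir503 and -1.13 for Mir450-2. It was -0.10 for Mir450b, -0.0040 for Mir351 and 0.011 for Mir542, whose log2 ratios had been -0.48, 0.29 and -0.17, and 0.26 for Mir450-1. How GC content came to move with the libraries was not tested.

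**Figure D4:**
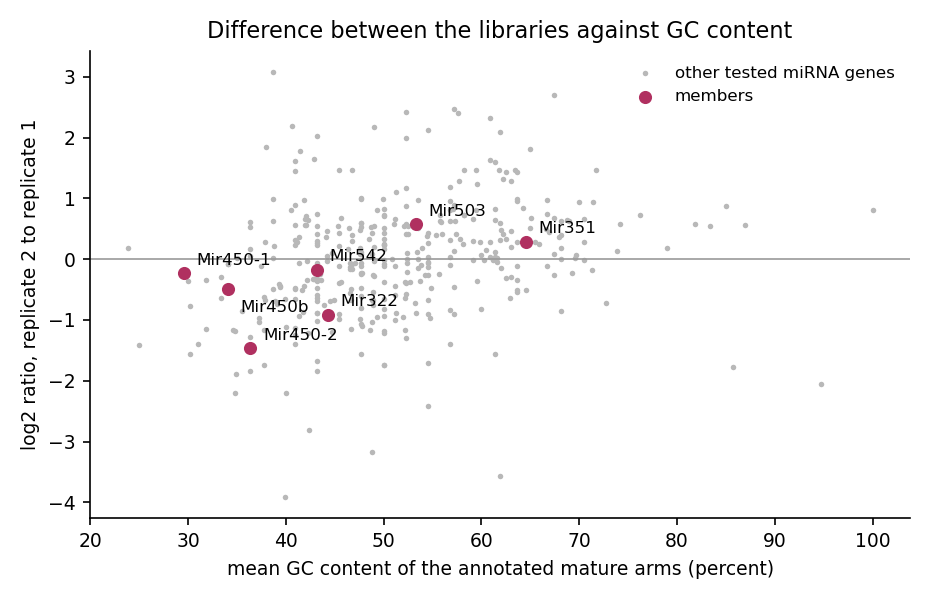
Log2 ratio of replicate 2 to replicate 1 against the mean GC content of a gene's annotated mature arms, for 397 tested genes with a mature sequence, the members in red. The 5 members with GC content of 44.3% or less lie under 0 and Mir503 and Mir351 lie above it.

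The genes that carry the seed of miR-322-5p elsewhere in the genome were found from the mature sequences, 10 of them in the count files. Mir15a had 3433 and 1025 CPM in replicates 1 and 2, Mir15b 1092 and 2179 CPM, Mir497 1467 and 713.0 CPM, and Mir195a 743.7 and 1071 CPM. Mir16-1 had 669.5 and 724.3 CPM and Mir16-2 231.7 and 236.0 CPM, but both make miR-16-5p, so their reads can map to both places and their levels are uncertain. Mir195b, Mir6342, Mir6353 and Mir6419 had 0 counts in both libraries. Mir322 alone was therefore above the 10 relatives together, 35458 against 7636 CPM in replicate 1 and 18855 against 5948 CPM in replicate 2. It held 82.3% and 76.0% of the counts of the genes with this seed, shares that leave out unassigned miR-16 reads and so can be too high. These are counts of genes, with both arms of a hairpin together, so not all need carry the seed.

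These relatives also moved in both directions between the libraries. Of 6 tested, 2 were lower in replicate 2 (Mir15a with a log2 ratio of -1.74 and Mir497 with -1.04) and 3 higher (Mir15b with 1.00, Mir195a with 0.53 and Mir16-1 with 0.11), and Mir16-2 did not pass. Over all tested genes 30.4% were lower and 28.6% higher. The median log2 ratio of the 6 relatives was 0.07, the same to 2 decimals as over all tested genes. With relatives on both sides, the summed counts of the seed group without Mir322 differed less between the libraries than Mir15a or Mir15b did.

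Mir351 had 5 relatives by seed. Mir125a had 5157 and 4943 CPM, close to the 4473 and 5465 CPM of Mir351, and the order of these genes turned between the libraries. Mir125b-1 had 351.7 and 361.4 CPM and Mir125b-2 213.5 and 201.9 CPM, and both make miR-125b-5p, so these levels are uncertain. Mir6394 and Mir6367 had 0 counts. Mir351 accordingly held 43.9% of the assigned counts of this seed in replicate 1 and 49.8% in replicate 2. Of the 3 tested relatives only Mir125a passed the test, with a log2 ratio of -0.06, whereas that of Mir351 was 0.29. Over all tested genes 59.0% passed. The counts do not separate the arms of a hairpin, so counts of a gene need not all belong to the arm with the seed. No gene of the table outside the cluster had the seed of miR-503-5p, miR-542-3p, miR-450a-5p or miR-450b-5p.

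**Figure D5:**
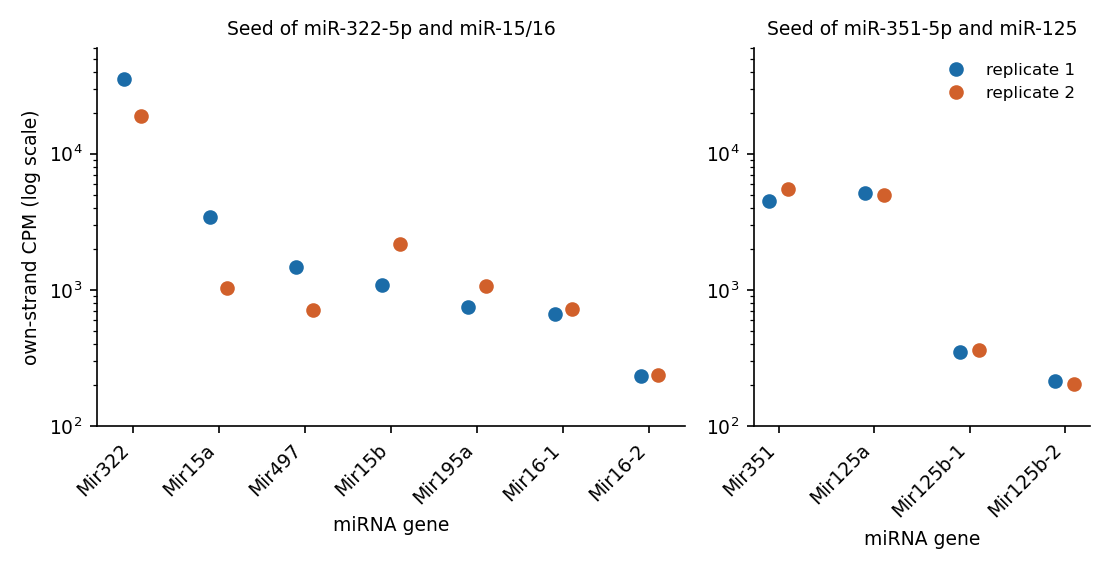
Own-strand CPM on a log axis in replicate 1 (blue) and replicate 2 (orange) for genes with at least 1 count that have the seed of miR-322-5p (left) or of miR-351-5p (right). Mir322 stands above each of its 6 detected relatives in both libraries, while Mir351 and Mir125a lie close together.

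Among the 142 miRNA genes of the X chromosome, the cluster held 60.2% of the counts in replicate 1 and 46.8% in replicate 2. The other 135 summed to 2.77% and 2.98% of all counts, a log2 ratio of 0.11. Other X-linked genes with at least 1000 mean CPM were Mir652 at 13120 ± 1820 CPM (SD, n = 2), Mir98, Mirlet7f-2, Mir361, Mir676 and Mir532. Of these, Mir652 (0.28) and Mir676 (0.88) had log2 ratios above 0 and Mir98 (-0.34) and Mir532 (-0.35) under 0. Of 32 tested X-linked genes outside the cluster, 14 were lower and 7 higher in replicate 2 by the exact binomial test. Over all tested genes 30.4% were lower and 28.6% higher. The median log2 ratio of the 32 was -0.05, against 0.07 over all tested genes.

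The genes nearest to Mir322 in log2 ratio, among 84 others with at least 1000 mean CPM, were Mir126a (-0.90), Mir23a (-0.89) and Mir872 (-0.87). Likeness here is the distance between log2 ratios over 2 libraries.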

How the data were processed

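Raw counts for each miRNA gene were deposited for each library, made on assembly mm10 with annotation M21 per the file descriptions, with the aligner and the counter not given in the sources used here. From the values, the count columns are without strand, own strand and opposite strand. The own-strand column was the main one. Rows for unassigned reads stayed out of totals (26.4% and 32.0% unmapped, 27.5% and 25.9% at several places, 8.22% and 7.54% outside genes in replicates 1 and 2). All 2202 identifiers matched the annotation. Log2 ratios added 0.5 counts. Genes that reached 10 counts, both libraries summed, were tested. The binomial test was also run on counts simulated with counting error only. There it recovered 72.6% of 2-fold changes and called 3.91% of unchanged genes. This cannot show how the test behaves when libraries differ by more than counting error. P-values measure only differences between these 2 libraries, and no molecular identifiers are recorded, so intervals and floors cover counting error only. Seeds and shared runs of 18 bases came from the RefSeq miRNA table. Named genes were all members, seed relatives, the 3 genes either side of Mir322 by level, the 3 nearest in log2 ratio, other X-linked genes of at least 1000 CPM and cell type markers. Members and lists were chosen with earlier results of these data known. Alternatives were the other count column, totals, minimums, pseudocounts, and scaling by edgeR 4.0.16 (TMM) and DESeq2 1.42.0. Python 3.11.15, scipy 1.17.1 and R 4.3.3 were used.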

Additional observations from a re-analysis of the deposited data

Results flagged for a closer look

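Reads at several genomic places lie outside the gene counts and were far more than a count of 0 allows. They were 27.5% of the reads in the file of replicate 1 and 25.9% in that of replicate 2. The share of them that belongs to miR-450a-5p, which Mir450-1 and Mir450-2 both encode, was not measured, so the 54 and 50 counts of Mir450-1 and the 90 and 35 of Mir450-2 can be low for this miRNA.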

How the results depend on the processing

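Of 186 alternatives, 168 stayed within the spread between libraries, or on the same side of the threshold, or within 1.5 times for counts, or, for residuals of the GC fit, which have no test, within the counting interval of the log2 ratio. Leaving out a replicate does so by construction for means of 2 libraries. A minimum cannot change the log2 ratio of a gene, only its adjusted p. A pseudocount enters only the log2 ratio and cannot change an adjusted p or whether a gene passes. The count column without strand cannot change shares within the cluster, since its counts of the members are the same. The exceptions were 14 values that moved, among them the cluster share at 1.25% of all reads in the file, against 3.40% of assigned reads, and the GC residuals of Mir322 (-0.75) and Mir450b (-0.10), Mir542 without Mir122 as given above, and 3 log2 ratios that changed sign as GC residuals: -0.0040 for Mir351, 0.011 for Mir542 and 0.26 for Mir450-1. Single replicates gave cluster shares of 2.62% to 4.18%. Over 7 other counting, minimum, pseudocount and scaling choices the log2 ratio ranged from -0.99 to -0.81 for Mir322 and from 0.50 to 0.68 for Mir503. No paired analysis was possible because there is 1 group of samples. Mir450-1 and Mir450-2 have under 100 counts per library, which leaves intervals over 1 log2 unit wide.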

Other observations

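Neighbouring miRNA genes elsewhere also differed from each other in their log2 ratio between the libraries. The comparison took pairs on one strand within 10000 bp, each gene with at least 1000 counts over both libraries, and was chosen after the values of the cluster were seen. Mir322 and Mir503 differed by 1.49 and Mir322 and Mir351 by 1.20, and the median over the 6 pairs of the cluster was 0.75. Over 181 pairs outside the cluster the median was 0.62, and 16 of them differed by more than Mir322 and Mir503 did. Most of the 181 pairs, and most of the 16, lay on chromosome 12, so they are no even sample of the genome. Most of the larger pairs on chromosome 12 included Mir668 or Mir665. Among the 16 were pairs of the seed family, Mir15a with Mir16-1 on chromosome 14, at 1.86, and Mir497 with Mir195a on chromosome 11, at 1.57. Another pair of this family, Mir15b with Mir16-2 on chromosome 3, differed by less, 0.97. Mir16-1 and Mir16-2 are uncertain because they encode the same 5p sequence. Pairs of one cluster share genes and are not independent.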
